A study of Homo sapiens with 8 samples.

Results

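The control libraries of 4 thyroid cancer cell lines were compared, 2 lines from anaplastic carcinoma against 2 lines from differentiated carcinoma. The anaplastic lines were 8505C and CAL-62, each transfected with a control siRNA. The differentiated lines were TPC-1, from a papillary carcinoma, and FTC-133, from a follicular carcinoma, each transfected with an empty vector. The labels name the lines and reagents; the tumour types are background knowledge of these lines. These 4 libraries were chosen by label from the 8 libraries of the series, which asked how the clock repressor NR1D1 alters these cells. The other 4 libraries came from the same lines after an siRNA against NR1D1 (8505C and CAL-62) or with an NR1D1-overexpressing vector (TPC-1 and FTC-133). The 4 control libraries were labelled wild type, RNA was total RNA, and each line gave 1 library per condition. A side therefore holds 2 lines, and the spread within a side joins the difference between lines of different patients with variation between libraries. With 1 library per line and condition these cannot be separated. On the differentiated side the spread also holds the difference between a papillary and a follicular line. The control reagent and the kind of deposited table changed together with the tumour type, so the 3 cannot be told apart in any value below.

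Papillary and follicular carcinomas arise from thyroid follicular cells and usually keep part of their program, in which the factors PAX8, NKX2-1 and FOXE1 drive the genes for thyroglobulin and iodide transport. Anaplastic carcinoma is the undifferentiated and most aggressive form, and in tumours it is known for loss of that program and for a spindle, mesenchymal look. Cell lines of all 3 types lose much of the thyroid program in culture.

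Levels are given as TPM, the length-corrected share of a gene among all transcripts, after the genes encoded by mitochondrial DNA were dropped and each column was rescaled to a sum of 1000000. Each line came in its own table that the authors normalized separately, so every comparison between lines, within a side or across the sides, rests on this rescaling. Recovered read totals, in units of 1000000 reads, were 14.9 and 17.93 in 8505C and CAL-62, against 23.18 and 16.64 in TPC-1 and FTC-133. Mitochondrially encoded genes had taken 29.28% and 57.22% of the deposited sums in 8505C and CAL-62, and 17.39% and 17.35% in TPC-1 and FTC-133. The comparison covered 10730 protein-coding genes with a mean of at least 5 TPM over the 4 libraries. A gene was said to have a 2-fold gap when (TPM + 1) differed at least 2-fold, in the same direction, in all 4 pairs of an anaplastic with a differentiated line. The size of a gap is the log2 ratio of the closest such pair, positive when the anaplastic lines were higher.

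The genes for thyroglobulin, the iodide transporter and the thyrotropin receptor were nearly silent on both sides, while PAX8, NKX2-1 and HHEX were expressed in lines of both sides. TG, thyroglobulin, had 0.03 and 0.06 TPM in 8505C and CAL-62, against 0.83 and 0.20 TPM in TPC-1 and FTC-133. SLC5A5, the iodide transporter, was listed at 0 in all 4 control libraries, and TSHR, the thyrotropin receptor, exceeded 1 TPM in FTC-133 alone, at 1.64 TPM. Among the transcription factors of the list, the sides overlapped for PAX8, NKX2-1 and FOXE1 but not for HHEX and GLIS3. PAX8 had 0.71 and 125.64 TPM in 8505C and CAL-62, against 399.62 and 95.46 TPM in TPC-1 and FTC-133. NKX2-1 had 89.62 and 0.00 TPM in 8505C and CAL-62, against 0.00 and 17.13 TPM in TPC-1 and FTC-133. FOXE1 had 0.09 and 1.5 TPM in the anaplastic lines and 15.98 and 0.57 TPM in the differentiated lines. HHEX, a homeobox factor, had 44.81 and 159.48 TPM in 8505C and CAL-62, against 26.92 and 7.98 TPM in TPC-1 and FTC-133, a gap of 0.71. GLIS3, a zinc finger factor, had 9.13 and 4.24 TPM in the anaplastic lines and 18.35 and 22.82 TPM in the differentiated lines, a gap of -0.93. PAX8 was thus present in CAL-62 and in both differentiated lines, NKX2-1 was present in 1 line of each side, and neither HHEX nor GLIS3 reached a 2-fold gap. Of the 24 thyroid genes listed, 8 passed the level filter and 2 had a 2-fold gap. FHL1, a LIM-domain protein, was higher in both anaplastic lines (117.38 and 120.83 TPM, against 36.64 and 28.82 TPM), and ID4, an inhibitor of helix-loop-helix factors, was lower (0.85 and 0.34 TPM, against 6.08 and 23.45 TPM). Between the treated libraries FHL1 kept a gap of 1.32, but the sides overlapped for ID4, with 0.05 TPM in NR1D1-vector TPC-1. Both kept 2-fold after the adjustment for GC content described below (1.40 and -1.76).

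Markers of other cell types did not mark a side as a whole. Of 13 leukocyte markers, CD14 alone passed the filter; PTPRC, CD3E and CD68 stayed between 0.00 and 0.46 TPM in all 4 libraries. CD14, a monocyte receptor, had 31.60 and 2.37 TPM in 8505C and CAL-62, against 0.13 and 0.17 TPM in TPC-1 and FTC-133. The summed leukocyte markers were 36.5 and 5.5 TPM in 8505C and CAL-62 and 10.9 and 13 TPM in TPC-1 and FTC-133. The endothelial and pericyte markers, 11 genes of which 3 passed the filter, summed to 131.9 and 60.2 TPM in the anaplastic lines and to 73.1 and 203.7 TPM in the differentiated lines. CDH5, a cadherin of endothelium, reached 66.16 TPM in 8505C and at most 0.27 TPM in the other lines, while VWF did not exceed 0.43 TPM anywhere. The 10 fibroblast markers, of which 7 passed, summed to 68.3 and 230.0 TPM in 8505C and CAL-62 and to 5.5 and 3783.3 TPM in TPC-1 and FTC-133. FTC-133 stood apart through COL1A2 at 1900.04 TPM, COL1A1 at 1147.79 TPM and THY1 at 595.81 TPM. CALCA, the calcitonin gene of thyroid C cells, was at 90.61 TPM in FTC-133 and at most 0.15 TPM in the other lines, with the neuroendocrine marker CHGA at or below 0.27 TPM in all. The 15 neural markers, of which 5 passed, summed to 155.9 and 655.6 TPM in the anaplastic lines and to 487.3 and 307.4 TPM in the differentiated lines. The part of these markers in the gaps below was not tested.

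The lines of a side were far apart themselves. Of the genes tested, 26.7% differed at least 2-fold between 8505C and CAL-62 and 39.8% between TPC-1 and FTC-133. Across the sides the shares were 37.0% for 8505C and TPC-1, 39.0% for CAL-62 and TPC-1, 42.0% for 8505C and FTC-133, and 48.8% for CAL-62 and FTC-133. By this share TPC-1 was nearer to each anaplastic line than to FTC-133. By Spearman correlation across the genes tested, which are not independent replicates, it was not: the values were 0.778 between the anaplastic lines, 0.749 between the differentiated lines and 0.627 to 0.728 across the sides. The control and treated libraries of a line differed 2-fold in 5.1% to 11.9% of genes.

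The limma test found no gene past the threshold. With 2 lines a side and 2 residual degrees of freedom, 0% of the 10730 genes were called higher and 0% lower at a limma adjusted p of 0.05, and the smallest adjusted p was 0.0798, for TMEM158. Without adjustment, 1209 genes had a limma p below 0.05, where 536 of the 10730 would be given by chance. Of the 1209, 706 had the anaplastic lines higher and 503 had them lower. That split turned on the scaling, with 598 higher and 795 lower after trimmed-mean rescaling. With the mitochondrially encoded genes kept in the sum it was 177 higher and 1063 lower. An exact permutation test of a single gene, 2 lines against 2, cannot give a two-sided p below 0.333. The genes that follow are therefore described by their values and gaps, and none of them passed the test.

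A 2-fold gap was seen in 581 genes that were higher in the anaplastic lines, 5.41% of those tested, and in 410 that were lower, 3.82%. A 4-fold gap was seen in 96 and 104 genes and an 8-fold gap in 39 and 40. The median log2 difference over all genes tested was 0.14, with the anaplastic lines higher, and the gap genes divided 58.6% higher. That division turned on the scaling. After trimmed-mean rescaling 43.1% of gap genes were higher in the anaplastic lines and the median log2 difference was -0.07. With the mitochondrially encoded genes kept in the sum the share was 17.2% and the median -0.45. Of the genes with a 2-fold gap, 273 of the 581 higher genes (47%) and 164 of the 410 lower genes (40%) kept it between the treated libraries of the same lines, in which 4.25% and 3.15% of genes had such a gap. Those libraries share their lines with the controls and also carry the NR1D1 reagents, so a gap lost there cannot be assigned to treatment or to variation between libraries.

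The gaps also moved with the base composition of the transcripts. Genes were put into 5 equal-sized groups by GC content. In the lowest group, 30.2% to 40.6% of bases in the longest transcript, 12.5% had a gap with the anaplastic lines higher and 0.839% with them lower. In the highest group, 57.7% to 73.9%, the shares were 1.45% higher and 8.58% lower. Each line took part. From the lowest to the highest group the median difference of a line from the mean of the 4 lines, on the log2 scale, went through 0.26, 0.14, -0.01, -0.15 and -0.32 in 8505C and 0.52, 0.28, 0.11, -0.03 and -0.17 in CAL-62. It was -0.18, 0.04, 0.20, 0.27 and 0.39 in TPC-1 and -0.63, -0.48, -0.30, -0.05 and 0.08 in FTC-133. An adjustment chosen after this was seen took off each library's median within 20 bins of GC content. It left a 2-fold gap in 339 genes with the anaplastic lines higher and 381 with them lower, 47.1% higher, and 265 of the 581 and 276 of the 410 genes kept their gap. The part of base composition in any single gap was not tested, and base composition cannot be told apart from tumour type here. Counts after this adjustment are given below beside those of each gene group. A 2-fold gap in the control libraries, in the treated libraries and after the GC adjustment was held by 170 genes higher and 142 genes lower in the anaplastic lines.

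**Figure D1:**
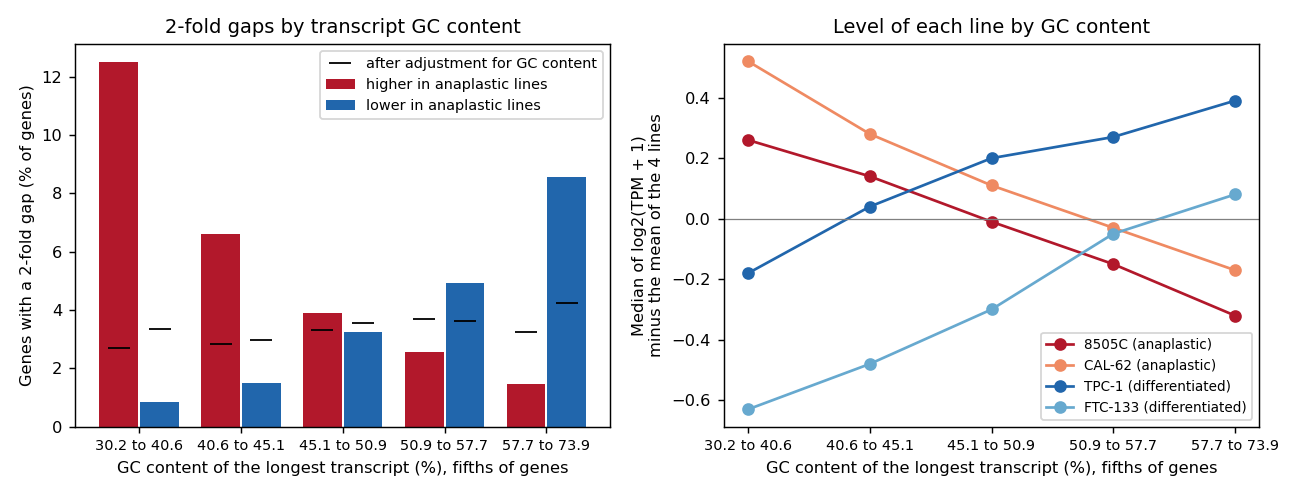
Left, the share of tested genes with a 2-fold gap (y axis, %) in 5 equal-sized groups of transcript GC content (x axis, %), as bars for genes higher or lower in the anaplastic lines and as dashes after the GC adjustment. Right, the median of log2(TPM + 1) of each control library minus the mean of the 4 lines in the same groups. The bars run from 12.5% to 1.45% for higher genes and from 0.839% to 8.58% for lower genes, and both anaplastic lines slope against both differentiated lines.

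The largest gap with the anaplastic lines higher was that of MPZL2, which is described first. MPZL2, an adhesion molecule of epithelia, had 394.31 and 64.33 TPM in 8505C and CAL-62 and was listed at 0 in TPC-1 and FTC-133, a gap of 6.03. Its neighbour MPZL3 (chr11:118226690-118252350, beside MPZL2 at chr11:118253403-118264536, GRCh38, minus strand) had 32.15 and 34.07 TPM in the anaplastic lines and 0.05 and 0.14 TPM in the differentiated lines. Both neighbours were therefore near 0 in each differentiated line. DSP, desmoplakin, which ties intermediate filaments to desmosomes, had 33.74 and 206.10 TPM in 8505C and CAL-62, against 0.33 and 0.03 TPM in TPC-1 and FTC-133. PODXL2, a sialomucin of the cell surface, had 95.03 and 204.07 TPM in the anaplastic lines and 0.19 and 3.98 TPM in the differentiated lines. SMOC1, a secreted calcium-binding matrix protein, had 84.94 and 173.91 TPM in 8505C and CAL-62, against 0.43 and 0.19 TPM in TPC-1 and FTC-133 (log2 difference 6.56 ± 0.71, SE; limma adjusted p = 0.112). MPZL2, MPZL3, DSP and SMOC1 were under 1 TPM in both differentiated lines, and PODXL2 was in TPC-1. SFRP1, a secreted Wnt inhibitor, had 1665.44 and 60.30 TPM in the anaplastic lines and 0.00 and 0.12 TPM in the differentiated lines. PDGFB, a platelet-derived growth factor chain, had 29.79 and 59.01 TPM in 8505C and CAL-62, against 0.38 and 0.00 TPM in TPC-1 and FTC-133. SFN, the epithelial 14-3-3 protein, had 96.41 and 108.97 TPM in the anaplastic lines and 0.79 and 4.49 TPM in the differentiated lines. The lines of the anaplastic side lay close together for SFN and far apart for SFRP1. The other members of the 15 largest were NUP210, a nuclear pore protein, STMN3, a microtubule regulator, SLC25A27, a mitochondrial carrier, SLAIN1, MYO5C, CPVL and ZNF594, with gaps of 3.77 to 5.88. All 15 kept a 2-fold gap between the treated libraries, with gaps of 3.16 to 6.99, and after the GC adjustment, with gaps of 3.07 to 6.25.

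The largest gaps with the anaplastic lines lower were led by PLIN2, the coat protein of lipid droplets. It had 0.13 and 0.32 TPM in 8505C and CAL-62, against 200.21 and 98.15 TPM in TPC-1 and FTC-133, a gap of -6.23 (log2 difference -6.85 ± 0.70, SE; limma adjusted p = 0.0959). CLEC11A, a secreted growth factor, had 1.60 and 1.36 TPM in the anaplastic lines and 242.81 and 144.01 TPM in the differentiated lines. TMEM158, a membrane protein first found as a RAS-induced gene, had 7.41 and 10.41 TPM in 8505C and CAL-62, against 684.97 and 601.58 TPM in TPC-1 and FTC-133 (log2 difference -6.04 ± 0.48, SE; limma adjusted p = 0.0798). The lines of each side lay close together for TMEM158, and for all 3 genes the sides were far apart. CA12, a carbonic anhydrase of the cell surface, had 2.01 and 1.67 TPM in the anaplastic lines and 123.69 and 252.65 TPM in the differentiated lines. CREB3L1, a membrane-bound transcription factor of the endoplasmic reticulum, had 1.05 and 0.24 TPM in 8505C and CAL-62, against 53.58 and 165.78 TPM in TPC-1 and FTC-133. GJB2, connexin 26, had 0.00 and 0.79 TPM in the anaplastic lines and 44.38 and 104.03 TPM in the differentiated lines. The sides did not overlap for any of them. The remaining members were TMEM178B, SHISAL1, PTGIS, the prostacyclin synthase, HS3ST3A1, a heparan sulfate sulfotransferase, SUSD3, CD40, a TNF receptor family member, S100A2, UNC5B, a netrin receptor, and COL6A2, a collagen VI chain. Their gaps lay between -4.50 and -3.82, and SHISAL1 was listed at 0 in both anaplastic lines. All 15 kept a 2-fold gap between the treated libraries, of -5.87 to -1.97, and after the GC adjustment, of -6.56 to -2.87.

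**Figure D2:**
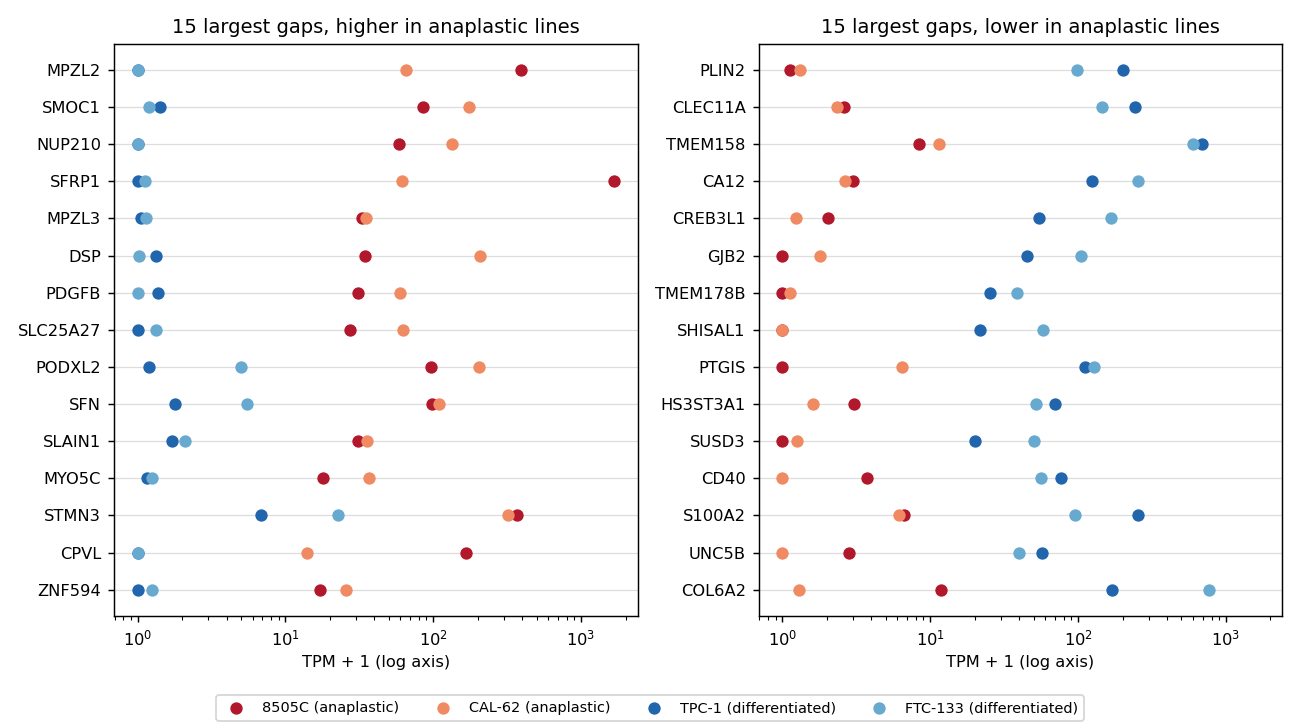
TPM + 1 (x axis, log scale) of the 15 genes with the largest gap in each direction (rows), 1 point per control library, anaplastic lines in reds and differentiated lines in blues. In every row the points of the sides do not overlap, as the choice of genes requires, and for MPZL2 both differentiated lines sit at the left edge, where TPM is 0.

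The promoters of SMOC1 and PLIN2 are shown because these genes had the largest gap in each direction among genes with a promoter in the RefSeq table (GRCh38.p14), and that of NR1D1 because it is the regulator the series studied. Each runs from 250 bases before to 50 bases after the gene's start, 5′ to 3′, with CG dinucleotides in capitals.
SMOC1 promoter, chr14:69879166-69879465, plus strand: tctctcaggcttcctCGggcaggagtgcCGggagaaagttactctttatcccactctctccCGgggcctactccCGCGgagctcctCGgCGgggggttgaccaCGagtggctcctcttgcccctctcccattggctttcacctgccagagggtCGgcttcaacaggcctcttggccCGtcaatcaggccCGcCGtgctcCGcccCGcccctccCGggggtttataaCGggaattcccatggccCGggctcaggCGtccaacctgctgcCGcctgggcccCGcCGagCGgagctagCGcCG
PLIN2 promoter, chr9:19127443-19127742, minus strand: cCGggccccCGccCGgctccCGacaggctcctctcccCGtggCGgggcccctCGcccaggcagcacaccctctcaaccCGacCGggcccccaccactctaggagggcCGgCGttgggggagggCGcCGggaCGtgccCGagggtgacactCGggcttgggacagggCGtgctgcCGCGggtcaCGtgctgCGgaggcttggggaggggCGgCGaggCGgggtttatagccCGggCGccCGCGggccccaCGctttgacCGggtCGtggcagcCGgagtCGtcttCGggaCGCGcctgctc
NR1D1 promoter, chr17:40100540-40100839, minus strand: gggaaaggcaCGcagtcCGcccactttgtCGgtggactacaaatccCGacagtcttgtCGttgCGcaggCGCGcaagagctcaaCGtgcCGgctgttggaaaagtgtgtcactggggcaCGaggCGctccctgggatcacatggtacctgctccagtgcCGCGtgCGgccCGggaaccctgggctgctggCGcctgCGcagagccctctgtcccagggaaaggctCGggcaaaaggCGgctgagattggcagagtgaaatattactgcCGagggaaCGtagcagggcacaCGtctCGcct
The SMOC1, PLIN2 and NR1D1 windows held 24, 36 and 24 CG dinucleotides, against a median of 27 over the 8811 tested genes with a promoter entry. The PLIN2 window holds the E-box CACGTG, a letter match searched on both strands, which 10.3% of these promoters hold. Neither the SMOC1 nor the NR1D1 window holds it, and none of the 3 holds the AP-1 letters TGANTCA, found in 4.2% of promoters. CpG-poor promoters, with under 6 CG dinucleotides, made up 7.1% of the 478 matched genes with a gap higher in the anaplastic lines, 11.1% of the 316 matched genes with a gap lower, and 5.0% of all matched genes. Of genes with at least 5 TPM in both lines of one side and under 1 TPM in both lines of the other, CpG-poor promoters made up 25.0% of the 24 matched genes on in the anaplastic lines and 19.0% of the 21 matched genes on in the differentiated lines. The AP-1 letters stood in 12.5% and 14.3% of those small groups, which is 3 genes in each.

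Genes of epithelial junctions and keratins had members higher in both anaplastic lines and none lower in both. Of 40 listed, 25 were tested; 8 had a 2-fold gap with the anaplastic lines higher and none had one with them lower, beside 5.41% and 3.82% of all genes. The median log2 difference of the 25 was 2.47, against 0.14 over all genes tested, and 8 had the gap after the GC adjustment. KRT7, a simple-epithelium keratin, had 458.20 and 1334.27 TPM in 8505C and CAL-62, against 10.79 and 42.14 TPM in TPC-1 and FTC-133. KRT18 had 786.59 and 977.39 TPM in the anaplastic lines and 151.38 and 58.27 TPM in the differentiated lines. Its partner KRT8 had 452.65 and 401.12 TPM in 8505C and CAL-62, against 69.80 and 16.89 TPM in TPC-1 and FTC-133. The 3 keratins stand as a run of adjacent tested genes on chromosome 12, and KRT8 and KRT18 overlap at their starts, so reads of the overlap cannot be assigned without strand. JUP, plakoglobin, had 128.32 and 81.19 TPM in the anaplastic lines, against 19.63 TPM in TPC-1 and 0.17 TPM in FTC-133. PKP2, plakophilin 2, had 22.42 and 15.76 TPM in 8505C and CAL-62, against 3.05 and 0.00 TPM in TPC-1 and FTC-133. Other desmosome genes differed less: DSG2, a desmosomal cadherin, had a gap of 0.60, and PKP3, plakophilin 3, overlapped, with 21.32 and 34.04 TPM in 8505C and CAL-62, against 23.88 and 0.29 TPM in TPC-1 and FTC-133. LAMA3 and ITGB4, a laminin chain and the integrin of hemidesmosomes, also had the gap. Between the treated libraries DSP, KRT7, KRT18, LAMA3 and ITGB4 kept 2-fold, while PKP2, JUP and KRT8 had gaps of 0.77, 0.72 and 0.64.

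Other members of the list had no 2-fold gap. CDH1, E-cadherin, was at 13.28 TPM in CAL-62, 0.00 TPM in 8505C and at most 0.09 TPM in the differentiated lines. EPCAM reached 452.78 TPM in CAL-62 and 2.60 TPM in 8505C, against 0.00 TPM in TPC-1 and 1.77 TPM in FTC-133. KRT19 was at 279.30 TPM in CAL-62 and between 0.28 and 0.96 TPM in the other lines, and ESRP2 and ST14 had the same shape. CLDN4, a claudin of tight junctions, had 4.46 and 29.69 TPM in 8505C and CAL-62, against 0.13 and 2.32 TPM in TPC-1 and FTC-133, apart but under 2-fold. CLDN7 had 15.90 and 28.34 TPM in the anaplastic lines, against 0.08 TPM in TPC-1 and 15.59 TPM in FTC-133. CLDN1 was high in 3 lines, at 453.77 and 341.55 TPM in 8505C and CAL-62 and 674.81 TPM in TPC-1, against 10.78 TPM in FTC-133. LAMB3 ran against the group, with 27.84 and 160.22 TPM in the anaplastic lines and 2873.67 and 50.33 TPM in the differentiated lines.

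Mesenchymal genes showed 3 members of 27 with a 2-fold gap, all with the anaplastic lines lower (3.82% of all genes had such a gap). The median log2 difference of the 27 was -0.49, and 10 members had a higher and 17 a lower anaplastic mean. CDH2, N-cadherin, was higher in both anaplastic lines, with a gap of 0.84 that was 1.07 between the treated libraries and 0.21 after the GC adjustment. VIM and FN1 overlapped. SNAI2, a repressor of epithelial genes, had 3.37 and 0.86 TPM in 8505C and CAL-62, against 24.60 and 277.22 TPM in TPC-1 and FTC-133. ACTA2, smooth muscle actin, had 6.93 and 4.05 TPM in the anaplastic lines and 24.69 and 72.58 TPM in the differentiated lines. VCAN, a matrix proteoglycan, had 1.79 and 40.17 TPM in 8505C and CAL-62, against 90.34 and 298.40 TPM in TPC-1 and FTC-133. FTC-133 was the highest line for each of them, beside the fibroblast markers given above; the part of that in the gaps was not tested. All 3 kept the gap after the GC adjustment. Of 21 plasminogen activators, metalloproteases and inhibitors tested, 2 had a gap lower and 1 higher, beside 3.82% and 5.41% of all genes. ADAMTS1, a secreted metalloprotease, had 10.68 and 0.46 TPM in 8505C and CAL-62, against 87 and 882.25 TPM in TPC-1 and FTC-133. MMP14, a membrane metalloprotease, had 36.74 and 272.85 TPM in the anaplastic lines and 666.49 and 3988.54 TPM in the differentiated lines. The MMP14 gap fell under 2-fold after the GC adjustment (-0.92). Between the treated libraries MMP14 overlapped and ADAMTS1 had a gap of -0.69. PLAT, the tissue plasminogen activator, ran the other way, with 197.73 and 133.05 TPM in 8505C and CAL-62, against 9.79 and 7.18 TPM in TPC-1 and FTC-133. MMP1 was a property of 8505C, with 23267.84 TPM there and at most 11.91 TPM in any other line.

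Several cholesterol and fatty acid synthesis genes were lower in both anaplastic control libraries. Of 32 tested, 6 had a gap with the anaplastic lines lower and 1 with them higher, beside 3.82% and 5.41% of all genes; the median log2 difference was -1.18, and 29 of 32 had a lower anaplastic mean. ACLY, which makes cytosolic acetyl-CoA, had 48.81 and 86.23 TPM in 8505C and CAL-62, against 557.00 and 873.42 TPM in TPC-1 and FTC-133. FASN, the fatty acid synthase, had 57.49 and 45.63 TPM in the anaplastic lines and 373.10 and 598.19 TPM in the differentiated lines. INSIG1, the sterol sensor that retains the SREBP complex, had 39.58 and 92.81 TPM in 8505C and CAL-62, against 258.07 and 2478.16 TPM in TPC-1 and FTC-133. LSS, FDPS and HSD17B7 completed the 6, and TM7SF2, a sterol reductase, was the one member higher (19.61 and 19.38 TPM, against 5.69 and 1.23 TPM). With the lipid droplet gene PLIN2 described above, both the making and the storage of lipid had members lower in both anaplastic lines. None of the 6 lower synthesis genes kept 2-fold between the treated libraries, while TM7SF2 (1.08) and PLIN2 (-5.75) did. There ACLY had 338.75 and 294.99 TPM in siNR1D1 8505C and CAL-62 and 595.70 and 737.22 TPM in NR1D1-vector TPC-1 and FTC-133, and FASN overlapped. After the GC adjustment 5 of 32 were lower with a 2-fold gap, not all of them the same genes: FDPS and LSS fell to gaps of -0.95 and -0.94.

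Some genes of the DNA damage response and growth arrest were lower as well. Of 24 tested, 5 had a gap with the anaplastic lines lower and none with them higher, beside 3.82% and 5.41% of all genes, with a median log2 difference of -0.80. The counts were the same after the GC adjustment. Between the treated libraries BBC3, GADD45A and PHLDA3 kept 2-fold, CDKN1A had a gap of -0.35 and EDA2R overlapped. CDKN1A, the p21 cell cycle inhibitor, had 20.08 and 32.22 TPM in 8505C and CAL-62, against 536.08 and 78.98 TPM in TPC-1 and FTC-133. PHLDA3, an AKT inhibitor, had 8.77 and 4.77 TPM in the anaplastic lines and 129.50 and 43.10 TPM in the differentiated lines. GADD45A, a growth arrest and damage gene, had 46.28 and 62.38 TPM in 8505C and CAL-62, against 522.47 and 210.78 TPM in TPC-1 and FTC-133. BBC3, the apoptosis gene PUMA, and EDA2R were the other 2. TPC-1 held the highest value of all 5, and EDA2R had 0.18 and 0.63 TPM in 8505C and CAL-62, against 44.12 TPM in TPC-1 and 2.78 TPM in FTC-133.

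Among cytokines and NF-kB targets, 7 of 31 tested had a gap with the anaplastic lines lower and 2 with them higher, beside 3.82% and 5.41% of all genes, and the median log2 difference was -1.76. After the GC adjustment the counts were again 7 and 2, but RELB (-0.91) dropped out of the 7 and CXCL8 (-1.62) came in. CSF2, a myeloid growth factor, had 0.00 and 1.24 TPM in 8505C and CAL-62, against 30.38 and 99.65 TPM in TPC-1 and FTC-133. IL11, a cytokine of the IL-6 family, had 0.12 and 1.22 TPM in the anaplastic lines and 58.34 and 19.72 TPM in the differentiated lines. CSF1, the macrophage growth factor, had 33.21 and 23.61 TPM in 8505C and CAL-62, against 174.20 and 150.55 TPM in TPC-1 and FTC-133. TNFAIP2, IL24, RELB and TNFRSF9 completed the 7. ICAM1, an adhesion receptor for leukocytes, ran the other way, with 140.88 and 64.08 TPM in the anaplastic lines and 5.21 and 0.41 TPM in the differentiated lines. Between the treated libraries CSF2, IL11 and IL24 overlapped and RELB and TNFSF15 fell under 2-fold, while CSF1, TNFAIP2, TNFRSF9 and ICAM1 kept it. In the interferon list 2 of 36 were higher with a gap and 4 lower, beside 5.41% and 3.82% of all genes, and 2 and 3 after the GC adjustment. IFITM1 had 1366.55 and 247.19 TPM in 8505C and CAL-62, against 0.44 and 49.26 TPM in TPC-1 and FTC-133, while ISG15 had 4.87 and 10.37 TPM in the anaplastic lines and 42.55 and 72.16 TPM in the differentiated lines. The list had members in both directions, with a median log2 difference of 0.04 that turned to -0.11 after trimmed-mean rescaling.

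**Figure D3:**
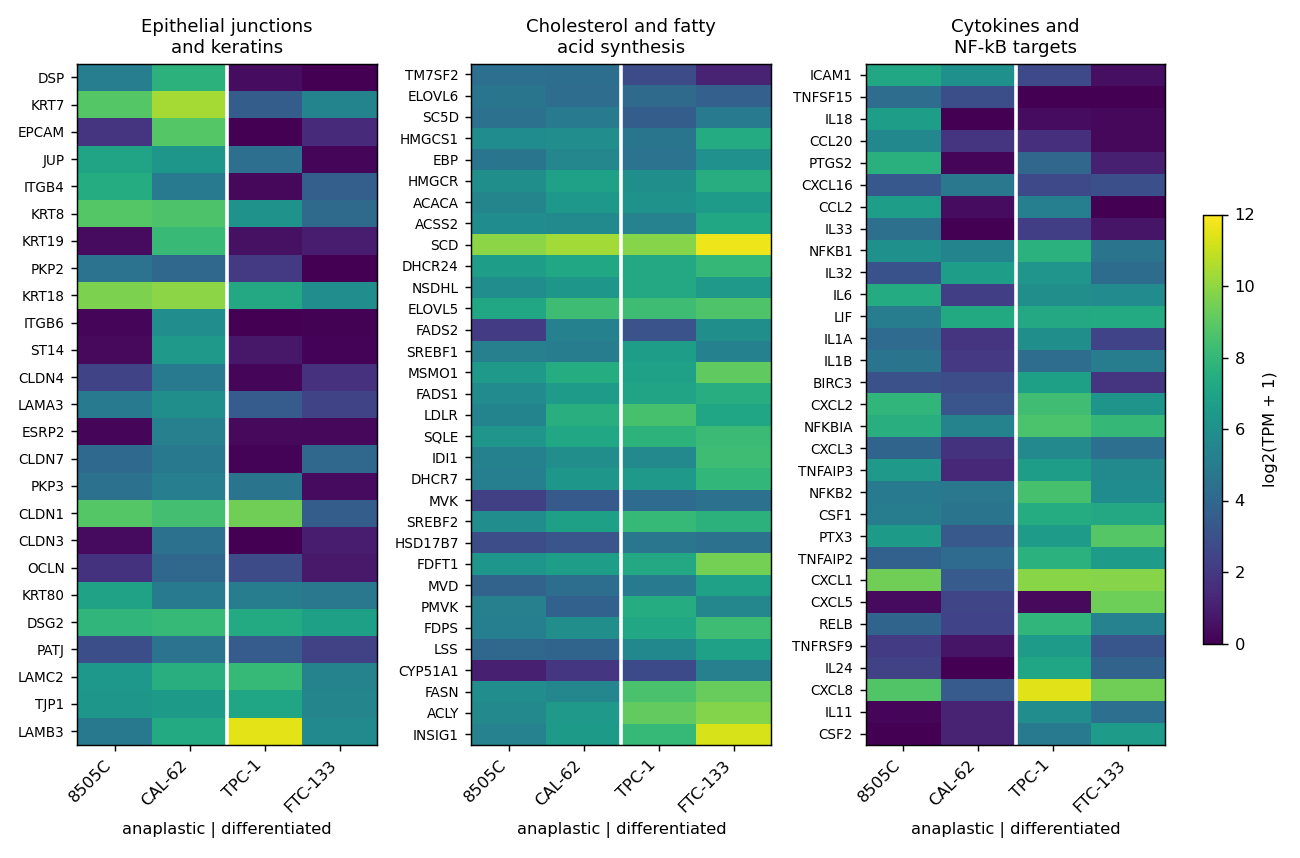
log2(TPM + 1) of the tested members of 3 gene lists (rows, ordered by the difference of the sides) in the control libraries, anaplastic lines left of the white line and differentiated lines right of it. DSP, KRT7, KRT8 and KRT18 are bright in both anaplastic lines, EPCAM and KRT19 in CAL-62 alone, and ACLY, FASN, CSF1 and CSF2 in both differentiated lines.

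In the glycolysis and hypoxia list 6 of 32 tested had a gap with the anaplastic lines lower and none with them higher, beside 3.82% and 5.41% of all genes; the median log2 difference was -0.70. CA12 was among them, with HK1, PFKP, PFKFB3, PGAM1 and ENO2. HK1, a hexokinase, had 140.57 and 116.70 TPM in 8505C and CAL-62, against 449.83 and 309.09 TPM in TPC-1 and FTC-133. PGAM1, phosphoglycerate mutase, had 644.92 and 449.68 TPM in the anaplastic lines and 1671.04 and 1499.31 TPM in the differentiated lines. After the GC adjustment CA12, HK1, PFKFB3 and ENO2 kept 2-fold, and between the treated libraries CA12, PFKFB3 and PGAM1 did. Of the NRF2, glutathione and iron genes 4 of 32 were lower with a gap and none higher, beside 3.82% and 5.41% of all genes, and 3 were after the GC adjustment. HMOX1, heme oxygenase 1, had 30.63 and 16.70 TPM in 8505C and CAL-62, against 367.63 and 1434.04 TPM in TPC-1 and FTC-133, and AKR1B1, aldose reductase, had 231.37 and 185.77 TPM in the anaplastic lines and 928.37 and 2733.55 TPM in the differentiated lines.

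Of 14 histone genes tested, 5 had a gap with the anaplastic lines higher and none with them lower, beside 5.41% and 3.82% of all genes. H2BC12 had 811.57 and 752.45 TPM in 8505C and CAL-62, against 253.52 and 294.84 TPM in TPC-1 and FTC-133. H2AC6, H2AC11, H2BC8 and H3C10 were the others. H2BC12 alone of the 5 kept the gap between the treated libraries. The count turned on the scaling, with 2 of 14 after trimmed-mean rescaling and none with mitochondrially encoded genes kept, against 4 of 14 after the GC adjustment. Histone copies share sequence and most of their messages have no poly(A) tail, so these levels are uncertain. None of 52 ribosomal protein genes had a 2-fold gap, beside 5.41% of all genes higher and 3.82% lower, and their median log2 difference was 0.00. Counting gaps of any size, 14 of the 52 were higher and 13 lower in both anaplastic lines. Over all genes tested, 45.1% had a gap of any size.

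Receptors, ligands and their outputs differed gene by gene. ERBB3, a receptor of the EGF receptor family, had 5.62 and 17.50 TPM in 8505C and CAL-62, against 0.30 and 0.34 TPM in TPC-1 and FTC-133. IGF1R had 54.18 and 50.86 TPM in the anaplastic lines and 10.64 and 14.23 TPM in the differentiated lines, and INSR had 16.30 and 17.76 TPM against 6.27 and 2.19 TPM. The 2 related receptors were thus both higher on the anaplastic side, though INSR had a gap of 0.94 between the treated libraries. FGFR4 ran the other way (1.57 and 0.68 TPM, against 5.28 and 15.8 TPM), with a gap of -0.57 after the GC adjustment. Of 20 receptor tyrosine kinases tested, 3 had a gap higher and 1 lower, beside 5.41% and 3.82% of all genes. Of 28 ERK feedback and output genes, 2 had a gap higher and none lower, beside the same 5.41% and 3.82%. After the GC adjustment 3 were higher and none lower. Between the treated libraries 8 were higher and 1 lower, where 4.25% and 3.15% of genes had such a gap. AREG, an EGF receptor ligand, had 131.06 and 79.67 TPM in 8505C and CAL-62, against 12.57 and 5.62 TPM in TPC-1 and FTC-133, and SPRY2, a feedback inhibitor of ERK signalling, had 190.84 and 203.87 TPM in the anaplastic lines and 67.77 and 30.61 TPM in the differentiated lines. FGF5, a fibroblast growth factor, had 4.97 and 6.46 TPM in 8505C and CAL-62, against 306.70 and 49.57 TPM in TPC-1 and FTC-133. WNT5A, a Wnt ligand, had 1.37 and 0.44 TPM in the anaplastic lines and 24.16 and 74.57 TPM in the differentiated lines. Both ligands were lower in both anaplastic lines, and WNT5A kept its gap between the treated libraries (-4.09) while FGF5 overlapped. Of 18 growth factors and binding proteins tested, 2 had a gap higher and 2 lower. Of 22 Wnt ligands, receptors and feedback genes, 1 was higher and 2 lower, beside 5.41% and 3.82% of all genes. In the TGF-beta and BMP list 1 of 29 was higher with a gap and 4 lower, beside 5.41% and 3.82% of all genes. Between the treated libraries 2 were higher and none lower, and after the GC adjustment 1 and 3. TGFBI, a secreted target of the pathway, had 865.04 and 68.90 TPM in 8505C and CAL-62, against 10 and 14.52 TPM in TPC-1 and FTC-133; TGFBR1, the type I receptor, had 8.74 and 16.60 TPM in the anaplastic lines and 58.72 and 77.79 TPM in the differentiated lines. Of 17 S100 proteins and annexins tested, 2 had a gap higher and 2 lower, beside 5.41% and 3.82% of all genes. ANXA1 and ANXA3 were higher and ANXA6 lower among the annexins, so that family had members in both directions.

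Lineage factors other than those of the thyroid had 4 of 34 with a gap higher and 2 lower, beside 5.41% and 3.82% of all genes. SOX9, a progenitor and cartilage factor, had 125.69 and 96.59 TPM in 8505C and CAL-62, against 28.38 and 7.88 TPM in TPC-1 and FTC-133. RUNX3 had 31.79 and 7.84 TPM in the anaplastic lines and 0.00 and 0.06 TPM in the differentiated lines, and FOXC2 was listed at 0 in both differentiated lines. KLF4 was the other factor higher. The 2 lower factors, DLX2 and IRX3, lost the 2-fold gap after the GC adjustment.

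**Figure D4:**
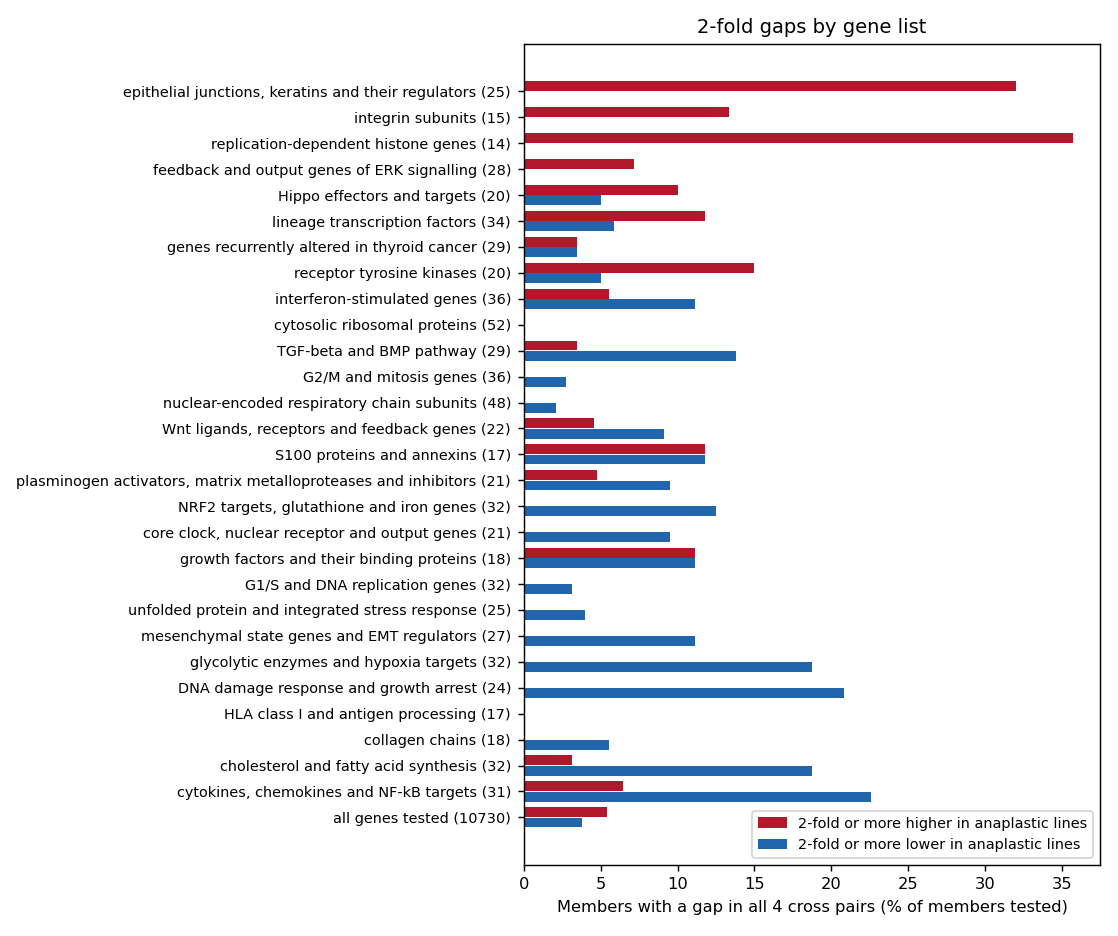
Share of the tested members of each gene list with a 2-fold gap in all 4 cross pairs (x axis, %; number tested in brackets), red where the anaplastic lines were higher and blue where they were lower, ordered by the median log2 difference. Lists with at least 14 tested members are drawn; over all 10730 genes the shares were 5.41% and 3.82%.

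NR1D1, the nuclear receptor that the series manipulates, was lower in both anaplastic lines before any NR1D1 reagent. It had 25.78 and 51.35 TPM in 8505C and CAL-62 with control siRNA, against 229.93 and 127.50 TPM in TPC-1 and FTC-133 with empty vector, a gap of -1.30 (log2 difference -2.20 ± 0.58, SE; limma adjusted p = 0.352). PER1, a negative limb gene of the clock, had 5.89 and 3.21 TPM in the anaplastic lines and 64.08 and 20.67 TPM in the differentiated lines. BMAL1, the activator that NR1D1 represses, had 17.82 and 28.35 TPM in 8505C and CAL-62, against 10 and 5.86 TPM in TPC-1 and FTC-133, apart but under 2-fold in the closest pair. NR1D1 and BMAL1 thus lay in opposite order on the sides. The paralog NR1D2 overlapped, with 50.10 and 71.45 TPM in the anaplastic lines and 87.11 and 37.34 TPM in the differentiated lines. Of the 21 clock genes tested, NR1D1 and PER1 alone had a 2-fold gap, beside 3.82% of all genes lower; after the GC adjustment 3 clock genes were lower with one, NR1D1 (-1.09) and PER1 (-1.22) among them. Between the treated libraries the NR1D1 gap was -2.33, where it was the target of the reagents, and the PER1 gap was -0.67. The time of harvest was not given in the sources used here, so phase was not tested.

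Among 33 genes recurrently altered in thyroid cancer, 29 were tested, 1 had a gap with the anaplastic lines higher and 1 with them lower, which is no more than the 5.41% and 3.82% of all genes. ATM, the DNA damage kinase, had 40.06 and 55.03 TPM in 8505C and CAL-62, against 13.63 and 13.34 TPM in TPC-1 and FTC-133, and lost the 2-fold gap after the GC adjustment (0.61). NF2, a tumour suppressor upstream of Hippo signalling, had 16.49 and 19.74 TPM in the anaplastic lines and 94.56 and 58.15 TPM in the differentiated lines, and kept it (-1.41). The other members marked single lines. RET was at 43.24 TPM in TPC-1 and at most 0.65 TPM elsewhere, and CCDC6 was at 1.39 TPM in TPC-1 and between 64.00 and 84.12 TPM in the other lines; TPC-1 is known for a CCDC6-RET fusion. CDKN2A and CDKN2B were listed at 0 in CAL-62 and MTAP, their neighbour, was at 0.31 TPM there. In 8505C CDKN2A and CDKN2B were at 49.41 and 57.65 TPM, so the anaplastic lines differed.

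Gap genes were unevenly spread over the chromosomes. On chromosome 20, 47 of 315 tested genes (14.9%) had a gap with the anaplastic lines higher and 6 with them lower, against 5.41% and 3.82% of all genes. On the X chromosome 55 of 376 (14.6%) were higher and 3 lower. Chromosome 20 was high in both anaplastic lines and low in both differentiated lines, with medians of 0.26 and 0.42 in 8505C and CAL-62 and of -0.35 and -0.42 in TPC-1 and FTC-133, relative to the mean of the lines on the log2 scale. Several chromosomes had more genes lower than higher, among them 1, 19, 21 and 22. The share lower was 8.25% of 97 genes on chromosome 21, 7.24% on chromosome 1, 6.91% on chromosome 22 and 5.66% on chromosome 19. On chromosome 1, 17 of 1091 genes were higher with a gap and 79 lower, and on chromosome 22, 1 of 246 was higher and 17 lower. The chromosome 1 medians did not part the sides, at -0.07 and -0.18 in 8505C and CAL-62 and 0.50 and -0.27 in TPC-1 and FTC-133. After the GC adjustment the counts were 39 higher and 4 lower on chromosome 20, 33 and 2 on X, 12 and 79 on chromosome 1, and 4 and 12 on chromosome 22. On chromosome 6, where 50 of 557 genes were higher, the count was 22 after the adjustment, and on chromosome 5 it was 13 instead of 41. DNA copy number was not measured, and its part was not tested.

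**Figure D5:**
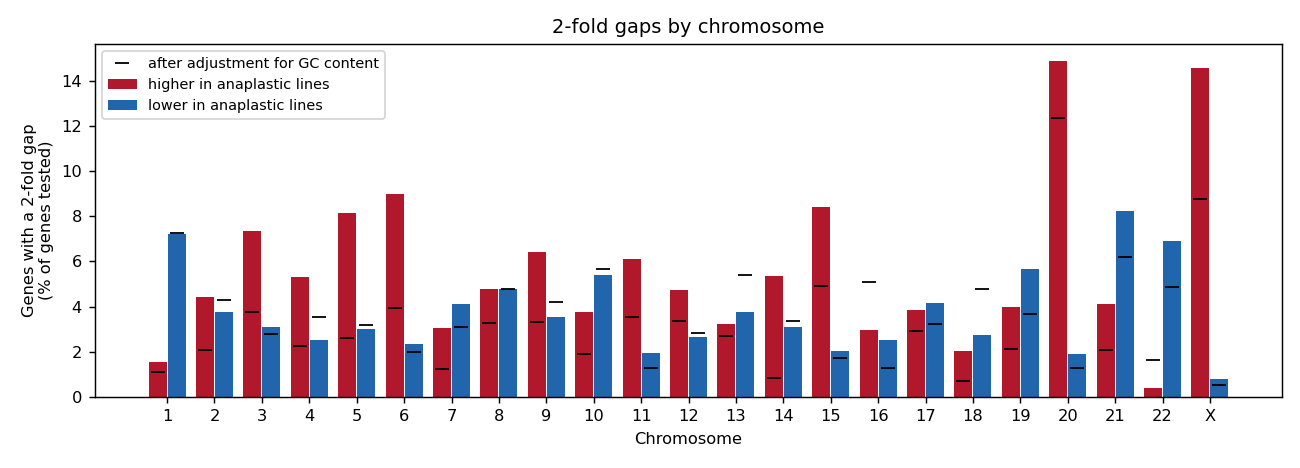
Share of tested genes on each chromosome with a 2-fold gap (y axis, %), red where the anaplastic lines were higher and blue where they were lower; dashes give the shares after the GC adjustment. Chromosomes 20 and X stand above the rest for higher genes, at 14.9% and 14.6%, and keep that place after the adjustment.

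Adjacent tested genes shared a gap in 20 runs of 3 or more. The longest, of 5 genes on the X chromosome (HMGN5, SH3BGRL, RPS6KA6, APOOL and CHM), was higher in the anaplastic lines, but after the GC adjustment 1 of the 5 kept its gap. In the X-linked run TAF1, OGT, RTL5 and PIN4, 3 of 4 kept it. OGT, the O-GlcNAc transferase, had 259.61 and 557.48 TPM in 8505C and CAL-62, against 96.97 and 39.09 TPM in TPC-1 and FTC-133. The run of alpha-tubulins on chromosome 12 was lower in the anaplastic lines and kept all 3 gaps after the GC adjustment, but 1 of 3 between the treated libraries. TUBA1C had 85.65 and 118.61 TPM in the anaplastic lines and 590.52 and 399.76 TPM in the differentiated lines. TUBA1B had 136.01 and 223.71 TPM in 8505C and CAL-62, against 719.83 and 519.09 TPM in TPC-1 and FTC-133. These paralogs share sequence, so the split of reads among them is uncertain, though all 3 were lower. Hexokinase genes HKDC1 and HK1 with TSPAN15 formed a run on chromosome 10 that was lower in the anaplastic lines and also kept all 3 gaps after the GC adjustment, as did PEF1, ADGRB2 and SPOCD1, and TMEM9, IGFN1 and PHLDA3, on chromosome 1. Between the treated libraries the HKDC1 run and the PHLDA3 run kept 2 of 3 gaps each, and the PEF1 run kept none. The zinc finger run ZNF559, ZNF266 and ZNF426 on chromosome 19 kept none.

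Genes on either side of the 2-fold line differed little. TMEM43, with 306.19 and 207.34 TPM in 8505C and CAL-62 and 103.08 and 94.35 TPM in TPC-1 and FTC-133, was just inside, and RMI2, with 13.79 and 20.82 TPM against 6.40 and 3.95 TPM, was just outside. ZYX, with 124.72 and 177.10 TPM in the anaplastic lines and 355.55 and 440.93 TPM in the differentiated lines, was just inside on the lower side.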

How the data were processed

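RNA from 8 libraries of 4 established lines was sequenced; the 4 control libraries were compared, with line and reagent taken from the sample titles and tumour type from background knowledge of the lines. Per the submitters' processing notes the build was GRCh38, trimming used Trimmomatic 0.38 and gene assignment used featureCounts 2.0.0. No source used here names the aligner, the annotation release or the strand setting. The deposited 8505C and CAL-62 values were TPM made by the authors, with column sums of 1000000. The deposited TPC-1 and FTC-133 values were named TPM by the authors but summed to 253330.3 and 261469.4 in the controls, and values times GENCODE 29 exon lengths summed to 1.001 and 1.005 of the total that FPKM implies, so they were read as FPKM. Rescaling to 1000000 without mitochondrially encoded genes turns both into TPM. Read totals were recovered from the smallest values; 92.7% to 93.7% of values of 1 to 10 reads, but 72.2% to 74.6% of all values, were whole reads to within 0.02, too few for a count model. Depth limits the precision of genes with low levels most.

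Protein-coding genes with a mean of 5 or more were tested by limma 3.58.1 in R 4.3.3 (trend in the spread) on log2(TPM + 1), two-sided, with Benjamini-Hochberg adjustment over all genes; fold changes on this scale understate the change of low genes. The fit was tested on simulated data. Gaps, lists, chromosomes and runs are counts without a test. Genes named are the 15 largest gaps a direction, up to 4 members a direction and the 2 with the largest difference within a side for each of 36 lists, all thyroid, driver and core clock genes, and members of runs of 3 or more adjacent genes. Cell type markers, genes at the 2-fold line and some further list members (among them JUP, PKP2, LAMA3, LAMB3, CDH1, CLDN1, ESRP2, ST14, FDPS, HSD17B7, PGAM1, RELB, IL24, TNFRSF9 and EDA2R) were named after their values were seen. The groups and lists were chosen with earlier results of these data known. GC content is that of the longest GENCODE 29 transcript; 3 tested genes had none. The GC adjustment was chosen after seeing the data; alternatives varied the pseudocount, the filter, the scaling, the spread, the size of the gap, the libraries and the lines. Python 3.11.15 with pandas 2.3.3 and numpy 2.4.6 made the tables. Some genes of these lists are not reported here.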

Additional observations from a re-analysis of the deposited data

How the results depend on the processing

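With 2 lines a side, limma's adjusted p rests on 2 residual degrees of freedom. The count of genes called was 0 as reported and also with a pseudocount of 0.1, a mean of 1 or more, no filter, trimmed-mean rescaling, quantile normalization, the mean of both libraries of each line, no trend in the spread, and the GC adjustment. It was 2 with all gene biotypes, 3 in the treated libraries, 5 with a robust spread and 37 with mitochondrially encoded genes kept. Leaving out a line gave 0 to 18 calls: 18 without 8505C, 17 without CAL-62 and 0 without TPC-1 or FTC-133; the lone line is then assumed to vary like the other side.

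The smallest adjusted p lay between 0.000891 (without CAL-62) and 0.329 (without FTC-133).

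The 991 genes with a 2-fold gap became 200 at 4-fold and 2046 at 1.5-fold (581 higher became 96 and 1214; 410 lower became 104 and 832). With mitochondrially encoded genes kept, 170 were higher and 819 lower, at a median log2 difference of -0.45. The GC adjustment, chosen after seeing the data, gave 339 higher. Leaving out a line removes cross pairs and so adds genes: 1912 to 3120 in all, 1022 to 2140 higher and 890 to 1219 lower. The number repeated in the treated libraries, 437, was 944 to 1876 without an anaplastic line and 1114 to 2083 without a differentiated line, that is 944 to 2083, and 343 after the GC adjustment. Of 167 named genes with a 2-fold gap, 126 kept it after the GC adjustment, 154 of 166 after trimmed-mean rescaling, 119 of 152 with mitochondrially encoded genes kept and 90 of 162 in the treated libraries; none had a gap the other way. No paired analysis was possible because the sides hold different lines with no shared number.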

Other observations

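Long noncoding genes were counted in the same way. Of 869 with a mean of at least 5 TPM, 98 (11.3%) had a 2-fold gap with the anaplastic lines higher and 37 (4.26%) with them lower, beside 5.41% and 3.82% of the protein-coding genes. Between the treated libraries 45 and 20 of these kept it. Protein-coding genes took 94.4% and 90.09% of the rescaled sums in 8505C and CAL-62, against 95.64% and 95.74% in TPC-1 and FTC-133. The part of that, of the scaling and of base composition in the noncoding counts was not tested. AL713998.1, a lincRNA on chromosome 6, was listed at 0 in 8505C and CAL-62 and had 217.45 and 391.39 TPM in TPC-1 and FTC-133. GAPLINC had 0.31 TPM in each anaplastic line, against 11.78 and 32.97 TPM in the differentiated lines. MIR503HG, the host gene of a microRNA on X, had 45.09 and 12.80 TPM in 8505C and CAL-62, against 0.00 and 0.33 TPM in TPC-1 and FTC-133. CASC9 had 14.23 and 14.14 TPM in the anaplastic lines and 0.00 and 0.38 TPM in the differentiated lines. These 4 were chosen after their values were seen, and no test was run on them.

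Some genes differed widely between the lines of each side, so that the sides overlapped. UCHL1 had 46.94 and 589.64 TPM in 8505C and CAL-62, against 321.07 TPM in TPC-1, and was listed at 0 in FTC-133. MT1E had 904.15 TPM in CAL-62 and 86.06 TPM in FTC-133 and was listed at 0 in 8505C and TPC-1; metallothionein copies share sequence, so this level is uncertain.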
